A study of Homo sapiens with 18 samples.

Results

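Olfactory receptor (OR) genes encode the odorant-sensing receptors of the nose. Accessible chromatin around them was examined in Ccd18-Co cells, a fibroblast line of human colon. The regions described are the autosomal ATAC-seq peaks that overlap the body of a protein-coding gene with an OR symbol (OR, a family number, subfamily letters and a member number), or the 10 kb on either side of it. The annotation (GENCODE release 44, genome build hg38) held 400 such genes, 399 of them on autosomes. Their windows held 641 of the 334857 peaks in the series, or 0.191% of all peaks. The rule used position and symbol only and no measured value.

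ATAC-seq measures how often a transposase cuts DNA, so a high count in a peak stands for open chromatin. It was done on 18 libraries in 3 groups of 6. Cells of the unstimulated group received no cytokines. The DMSO and belinostat groups both received 3 pulses of TNF, OSM and IL-17A at 10 ng/ml each and IL-1β at 0.1 ng/ml, each pulse lasting 72 h with 96 h of recovery. After 1 week of rest, they were kept for 5 days in DMSO or in 250 nM belinostat, an inhibitor of histone deacetylases, and collected 2 weeks later. All libraries come from a single cell line, and nothing in the labels says that the libraries of a group are separate cultures, so p-values measure the spread between these libraries, which may be technical. The 3 differences given are the cytokine contrast (DMSO minus unstimulated), the belinostat contrast (belinostat minus DMSO) and the residual contrast (belinostat minus unstimulated), which shares its libraries with both of the others.

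OR genes form the largest gene family of mammals and lie in clusters on most chromosomes. Each olfactory sensory neuron expresses a single OR allele, and the other OR genes of that neuron are packed into heterochromatin marked by trimethylation of lysines of histones H3 and H4. In cells outside the nose most OR genes are regarded as silent. Class I receptors (families OR51, OR52, OR55 and OR56) are the fish-like group, and class II holds the remaining families. Transcription was not measured here, so silence itself was not observed, and only accessibility is described.

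Library totals over all peaks ran from 7077321 to 11352032 counts in the unstimulated group, from 6488975 to 8066642 in the DMSO group and from 4661678 to 6370845 in the belinostat group. The median OR peak had 2 to 7 counts per library and a total of 84 counts over the 18 libraries, against 108 for the median of all peaks. Libraries differed in how their counts were spread over weak and strong peaks, and unstimulated replicate 6 and belinostat replicate 1 stood apart from the others of their groups. In unstimulated replicate 6, 11.3% of all peaks had no count, where the unstimulated median was 3.25%. In belinostat replicate 1 this was 5.35%, where the belinostat median was 1.58%. As a check of the cell type, all 8 fibroblast markers listed (COL1A1, COL1A2, COL3A1, PDGFRB, THY1, VIM, DCN and LUM) had a peak within 3 kb of their start, the strongest of which had an average log2 CPM (counts scaled to a library size adjusted by TMM, a trimmed mean of ratios between libraries) of 2.14 to 5.93. All 5 epithelial markers had one too, at −0.11 to 2.37, and 1 of 4 immune markers did, at −0.33. So did 7 of 8 olfactory neuron markers, at −0.46 to 6.39. Over all protein-coding genes 89.4% had such a peak, so its presence alone says little about the cell type. Medians of those peaks were 4.54 for the fibroblast, 0.18 for the epithelial and 1.16 for the olfactory neuron markers, and 3.99 over all protein-coding genes.

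For 6 OR peaks the sequence of the central bases is shown on the plus strand of hg38, because the largest or strongest values below belong to them. The first 4 lost accessibility in the cytokine or the belinostat contrast, the next was the strongest of all OR peaks, and the last lies in the coding exon of OR10H1 and had the largest rise in the cytokine contrast among called peaks whose average log2 CPM was not below 0. Capitals mark the words TGANTCA (AP-1), TAATTA (homeodomain factors), GGAATG (TEAD), TGTGGT (RUNX) and CCCNNGGG (EBF), searched on both strands. N is any base, so TGANTCA is a loose form of the AP-1 word and also takes in TGAATCA, the match marked in the OR10H5 flank. A peak without capitals holds none of these words in this window.
OR6V1 flank, chr7:143050868-143051068: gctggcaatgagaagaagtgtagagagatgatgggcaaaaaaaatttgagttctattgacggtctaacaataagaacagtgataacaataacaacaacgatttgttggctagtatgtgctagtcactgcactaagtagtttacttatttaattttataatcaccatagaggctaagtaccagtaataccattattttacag
OR10H5 flank, chr19:15780124-15780324: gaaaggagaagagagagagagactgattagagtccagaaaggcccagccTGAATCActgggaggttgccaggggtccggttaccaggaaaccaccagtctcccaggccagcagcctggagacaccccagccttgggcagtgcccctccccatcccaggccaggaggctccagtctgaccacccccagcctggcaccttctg
OR1J1 flank, chr9:122468798-122468998: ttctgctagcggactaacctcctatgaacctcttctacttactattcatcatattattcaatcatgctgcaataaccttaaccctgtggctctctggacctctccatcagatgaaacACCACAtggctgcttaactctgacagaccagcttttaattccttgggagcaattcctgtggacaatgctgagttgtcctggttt
OR4F6 flank, chr15:101807556-101807756: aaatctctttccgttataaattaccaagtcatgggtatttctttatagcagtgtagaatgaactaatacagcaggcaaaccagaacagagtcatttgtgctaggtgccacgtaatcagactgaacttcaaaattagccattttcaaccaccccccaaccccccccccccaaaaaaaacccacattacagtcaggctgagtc
OR9Q1 intron, chr11:58028861-58029061: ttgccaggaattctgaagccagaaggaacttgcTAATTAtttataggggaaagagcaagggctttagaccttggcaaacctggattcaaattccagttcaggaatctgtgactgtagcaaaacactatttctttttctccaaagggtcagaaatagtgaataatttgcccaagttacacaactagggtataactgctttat
OR10H1 coding exon, chr19:15807890-15808090: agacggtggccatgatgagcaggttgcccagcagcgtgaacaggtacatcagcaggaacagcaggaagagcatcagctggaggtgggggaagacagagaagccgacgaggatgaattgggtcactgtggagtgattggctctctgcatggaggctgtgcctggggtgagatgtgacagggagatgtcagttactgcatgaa

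Peaks were sparse around OR genes, but far from absent. The OR windows held 74.2 peaks per Mb, against 146.0 per Mb over the windows of all protein-coding genes and 112.9 per Mb over the autosomes. Of the 399 OR genes, 153 (38.3%) had no peak in their window and 258 (64.7%) had none in their body. Among the other protein-coding genes these shares were 1.81% and 5.44%. OR genes are short, with a median body of 2378 bases against 27877 for all protein-coding genes, so their windows are smaller too. A peak centre lay within 3 kb of the start in 128 OR genes (32.1%), against 90.6% of the other genes. The strongest of those peaks had a median average log2 CPM of −0.03 over the 128 OR genes and of 3.99 over all protein-coding genes that had one.

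A pair of other gene groups was set beside them. The windows of 240 zinc finger genes on chromosome 19, which also form repeated clusters, had 103.8 peaks per Mb, and 0.833% of these genes had no peak. The windows of 34 bitter taste, trace amine and vomeronasal receptor genes, short chemosensory genes like the ORs, had 64.6 peaks per Mb, and 41.2% had no peak. Class I windows held 96.6 peaks per Mb and class II windows 70.8.

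The 399 genes fell into 46 clusters when neighbours up to 500 kb apart were joined, and 21 of these had at least 5 genes. Peak density differed widely among them. The cluster OR13F1 to OR13D1 on chromosome 9 had no peak in the windows of its 8 genes. The large cluster OR4A16 to OR5AK2 on chromosome 11 had 13.0 peaks per Mb, and 41 of its 48 genes had none. On chromosome 1, OR10T2 to OR6N2 had 15.1 per Mb. At the other end, OR10H2 to OR10H4 on chromosome 19 had 239.9 per Mb and OR9A2 to OR2A1 on chromosome 7 had 155.0, both above the value for all protein-coding windows.

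**Figure D1:**
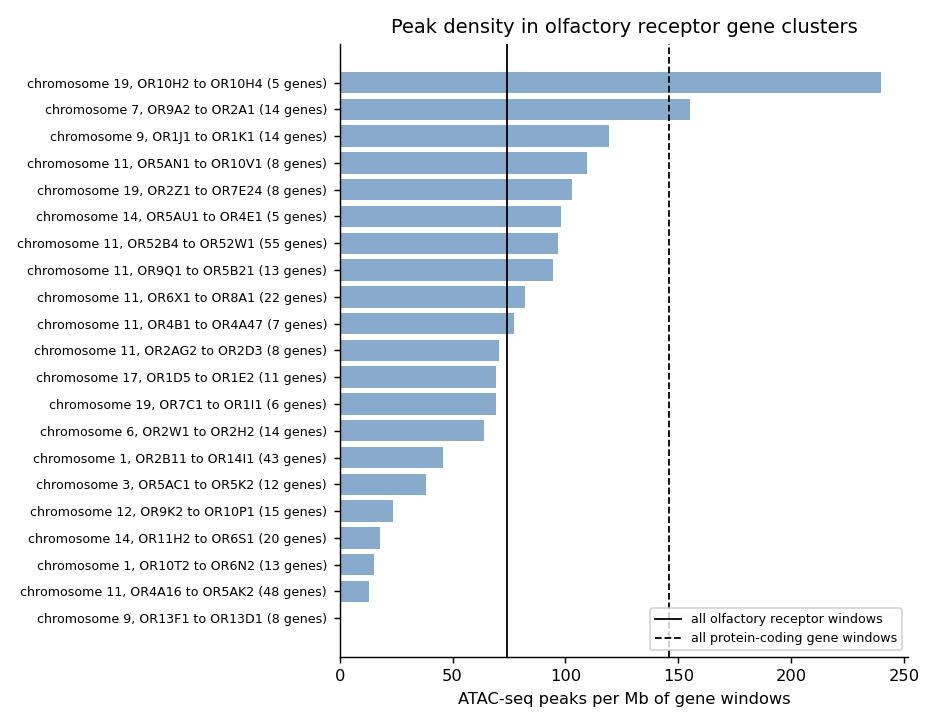
Horizontal bars give ATAC-seq peaks per Mb of gene windows (body and 10 kb on either side) in the 21 clusters of at least 5 OR genes, ordered by density. The solid line marks all OR windows (74.2 per Mb) and the dashed line all protein-coding gene windows (146.0 per Mb). Only OR10H2 to OR10H4 and OR9A2 to OR2A1 lie above the dashed line, and OR13F1 to OR13D1 is at 0.

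By position, 126 of the 641 peaks overlapped an OR coding exon, 114 an OR intron, 50 a non-coding exon of an OR gene and 351 only the flank. Most (540) lay outside the body and over 3 kb from the start of every other protein-coding gene. Another 79 lay in the body of a neighbour, and 22 within 3 kb of a neighbour's start. OR peaks were narrower than the rest, with a median width of 255 against 275 bases. Their median GC content was 49.3%, against 50.2% over all peaks.

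OR peaks were also weaker. Their median of average log2 CPM was −0.08, against 0.20 for all peaks and 0.02 for peaks over 100 kb from any protein-coding start. When all peaks were split into 5 level bins of equal size by average log2 CPM (bin 1 weakest, bin 5 strongest), 209 OR peaks (32.6%) were in bin 1 and 66 (10.3%) in bin 5. Peaks in OR coding exons were weaker still, at a median of −0.25, with 54 of 126 in bin 1. Per kb of peak, the median OR peak had 1.84 CPM in the unstimulated group, 2.91 in the DMSO group and 3.12 in the belinostat group. For all peaks these medians were 2.86, 3.43 and 3.64 CPM per kb.

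A few OR peaks were strong. The strongest, in an intron of OR9Q1 and 1992 bases from the start of OR6Q1 (chr11:58028520-58029402), had an average log2 CPM of 5.41. Its CPM was 49.1, 50.7 and 61.5 in the unstimulated group (lowest, median and highest library), 31.7, 41.6 and 47.5 in the DMSO group and 24.6, 35.3 and 39.3 in the belinostat group. All unstimulated libraries were above all DMSO and all belinostat libraries, but this rested on the scaling: the log2 fold change was −0.37 in the cytokine and −0.64 in the residual contrast (edgeR adjusted p = 0.0079 and 1.01e-06), and 0.03 and −0.03 with loess offsets (adjusted p = 0.78 and 0.79). A pair of peaks in the flank of OR10AD1 came next (chr12:48199676-48200281 and chr12:48197903-48198466), with average log2 CPM of 5.01 and 4.72. The annotation puts the second of them 173 bases from the start of a long non-coding RNA. In the flank of OR1F1, a peak at chr16:3234583-3235565 had an average log2 CPM of 4.30 and lay 4 bases from a transcript start of ZNF200, a zinc finger gene. On chromosome 15, an intron peak of the OR4F6 and OR4F15 windows (chr15:101813857-101814637) had an average log2 CPM of 4.13.

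The share of each library's counts that fell in OR peaks was below 0.113% in all 18 libraries. It ran from 0.0805% to 0.0911% in the unstimulated group (median 0.0866%), from 0.0913% to 0.103% in the DMSO group (median 0.0980%) and from 0.0900% to 0.112% in the belinostat group (median 0.104%). The lowest DMSO library was just above the highest unstimulated library, while belinostat replicate 1 fell inside the unstimulated range. Weak OR peaks, those of bins 1 and 2, had a share of 0.00707% to 0.0130% in the unstimulated group and 0.0153% to 0.0234% in the DMSO group. Strong OR peaks, those of bin 5, moved the other way, from 0.0510% to 0.0546% to 0.0451% to 0.0510%, with ranges that just overlap. Weak peaks of the whole genome rose with them, from 3.11% to 5.55% of the counts in unstimulated libraries to 6.05% to 8.89% in DMSO libraries. Of the counts in weak peaks, OR peaks held 0.213% to 0.235% in unstimulated libraries and 0.252% to 0.263% in DMSO libraries. The part of the genome-wide shift between strong and weak peaks in the OR result was not tested beyond the scalings given below.

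**Figure D2:**
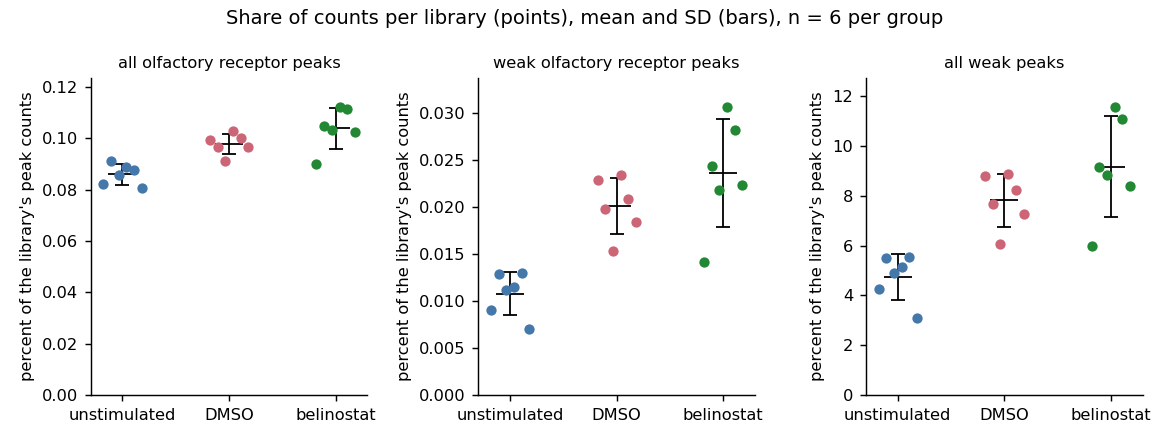
Percent of each library's peak counts in all OR peaks (left), in OR peaks of level bins 1 and 2 (middle) and in all peaks of bins 1 and 2 (right), with 1 point per library and the mean and SD of 6 libraries per group. In all 3 panels the unstimulated libraries lie below the DMSO libraries, and the lowest belinostat library is replicate 1.

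The cytokine contrast asked which regions still differed after the pulses had ended. The labels give no DMSO exposure and no culture times for the unstimulated group. Cytokines therefore cannot be told apart from vehicle and culture schedule, here or in the residual contrast. More OR peaks opened than closed: 95 of 641 (14.8%) opened and 34 (5.30%) closed at an adjusted p under 0.05, by edgeR's quasi-likelihood test with Benjamini-Hochberg adjustment over all peaks. Over all peaks, 9.51% opened and 9.73% closed. Log2 fold changes had a median of 0.48 over OR peaks and 0.13 over all peaks, and 463 OR peaks (72.2%) had a value above 0, against 57.7% of all peaks. Of the 95 that opened, 86 lay away from other protein-coding genes, 31 overlapped an OR coding exon, and their median average log2 CPM was −0.15. The 34 that closed had a median average log2 CPM of 2.36. Groups did not overlap in 24 OR peaks that were higher in every DMSO library (3.74%, against 2.25% of all peaks) and in 13 that were lower (2.03%, against 3.82%).

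These counts rested on how libraries were scaled. With library totals alone, 150 OR peaks opened (23.4%) and 11 closed (1.72%), against 16.2% and 3.25% of all peaks. Scaling factors from the lower 50% of peaks by level gave 25 that opened (3.90%) and 88 that closed (13.7%). Over all peaks these shares were 2.24% and 25.2%. With offsets fitted by loess to remove any trend with level, 16 opened and 14 closed (2.50% and 2.18%, against 2.00% and 1.91% of all peaks). The median of all peaks moved with the scaling, from −0.30 to 0.34. Relative to that median, the OR median stood 0.35 higher in the main fit, 0.36 higher with the weaker peaks and 0.13 higher with loess offsets. Without unstimulated replicate 6, 58 OR peaks opened (9.05%) and 24 closed (3.74%), and the shares over all peaks fell too, to 5.52% and 6.18%. The other 17 omissions gave 64 to 109 opened and 24 to 39 closed OR peaks.

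Calls varied with level. In bin 1, 16.7% of OR peaks opened, against 12.2% of all peaks in that bin, and in bin 2 these shares were 19.7% and 11.6%. Bin 3 had 12.8% and 13.4%, and bin 4 had 15.2% and 9.11%. In bin 5 the direction turned: 36.4% of OR peaks and 42.4% of all peaks closed, and 1 of 66 OR peaks opened. Median log2 fold changes over OR peaks fell from bin to bin, at 0.78, 0.60, 0.53, 0.10 and −0.29, where all peaks had 0.65 in bin 1 and −0.32 in bin 5.

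**Figure D3:**
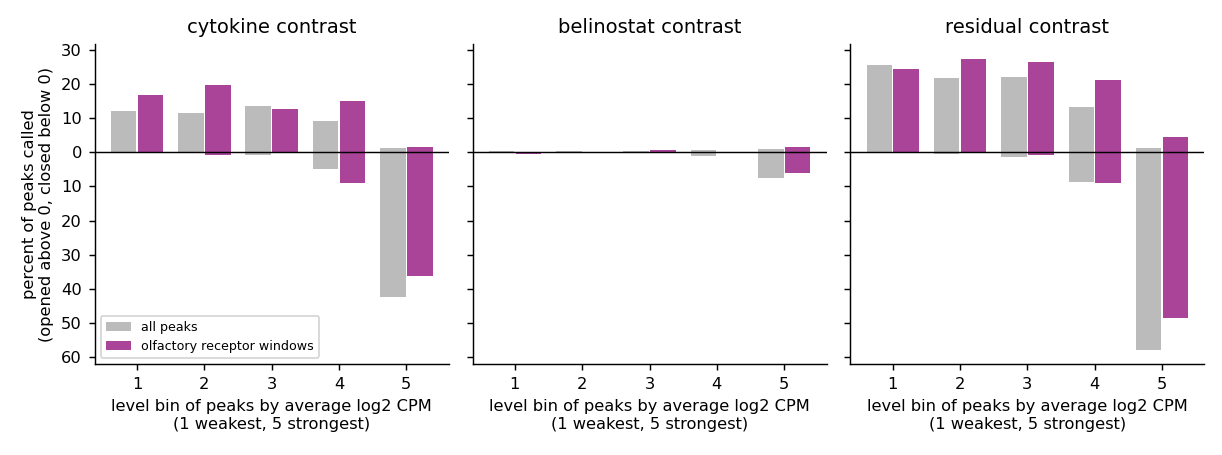
Percent of peaks that opened (above 0) or closed (below 0) in each contrast, by level bin of average log2 CPM, for all peaks (grey) and OR peaks (purple). In the cytokine contrast 16.7% of OR peaks opened in bin 1 and 36.4% closed in bin 5, while the belinostat panel is nearly empty outside bin 5.

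Of the peaks that closed, several lay around OR6V1, a class II receptor gene on chromosome 7 (143052341 to 143053282, plus strand). Its window held 8 peaks, of which 4 closed and 1 opened. The peak 1373 bases from its start (chr7:143050594-143051342), whose sequence is shown above, had 4.78, 7.25 and 10.3 CPM in unstimulated libraries (lowest, median, highest) and 1.92, 2.96 and 3.93 CPM in DMSO libraries. No DMSO library reached the lowest unstimulated one. The log2 fold change was −1.26 (SE 0.17, edgeR adjusted p = 2.19e-08). Further out, the peak 9617 bases from the start (chr7:143042125-143043323) went from 15.3, 16.6 and 18.3 CPM to 5.38, 9.41 and 11.4 CPM, a log2 fold change of −0.95 (SE 0.13, edgeR adjusted p = 2.19e-08). A weaker peak on the other side of the gene (chr7:143054649-143054956) had 1.64 to 2.16 CPM in unstimulated and 0.134 to 1.31 CPM in DMSO libraries, with a log2 fold change of −1.13 (SE 0.29, edgeR adjusted p = 0.0041). The 4 peaks that closed near OR6V1 also closed with loess offsets. At the far edge of the same window, a faint peak moved the other way (chr7:143062764-143063165, chosen after its values were seen), from 0 to 0.390 CPM in unstimulated libraries to 0.875 to 1.27 CPM in DMSO libraries, with a log2 fold change of 2.42 (SE 0.48, edgeR adjusted p = 0.00014).

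Next to OR10H5 on chromosome 19, a flank peak (chr19:15779761-15780688) had 12.3, 16.3 and 18.5 CPM in unstimulated libraries and 6.81, 7.42 and 9.10 CPM in DMSO libraries. Its log2 fold change was −1.05 (SE 0.13, edgeR adjusted p = 5.45e-10), and with loess offsets it was −0.73 (adjusted p = 1.71e-07). The annotation puts it 315 bases from a start of CYP4F24P, a pseudogene. The other peaks of that window differed: of 12, 4 opened and this 1 closed. On chromosome 15, all 6 peaks in the OR4F6 window closed, with log2 fold changes from −0.65 to −0.36, but none of these 6 was called with loess offsets.

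Rises were found at low levels. The OR10H1 coding exon peak (chr19:15807794-15808186) had 0, 0.337 and 0.635 CPM in unstimulated libraries and 0.590, 1.01 and 1.75 CPM in DMSO libraries, so the groups overlapped slightly. The log2 fold change was 1.64 (SE 0.42, edgeR adjusted p = 0.0037). A peak in the coding exon of a class I gene of the OR52N1 and OR52N5 windows (chr11:5788059-5788457), which also lies in the body of TRIM5, an antiviral restriction factor gene, had a log2 fold change of 1.51 (SE 0.42, edgeR adjusted p = 0.0066). In the flank of OR2A7 (chr7:144256138-144256587), CPM went from 0.322, 0.440 and 0.797 to 1.03, 1.35 and 1.75 without overlap, a log2 fold change of 1.39 (SE 0.35, edgeR adjusted p = 0.0028). An intron peak of OR9Q1 (chr11:58066236-58066540) rose by 1.36 on the log2 scale (SE 0.40, edgeR adjusted p = 0.011). With loess offsets the OR2A7 peak was still called and the other 3 were not. Of the 95 OR peaks that opened, 14 also opened with loess offsets, and of the 34 that closed, 11 also closed.

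**Figure D4:**
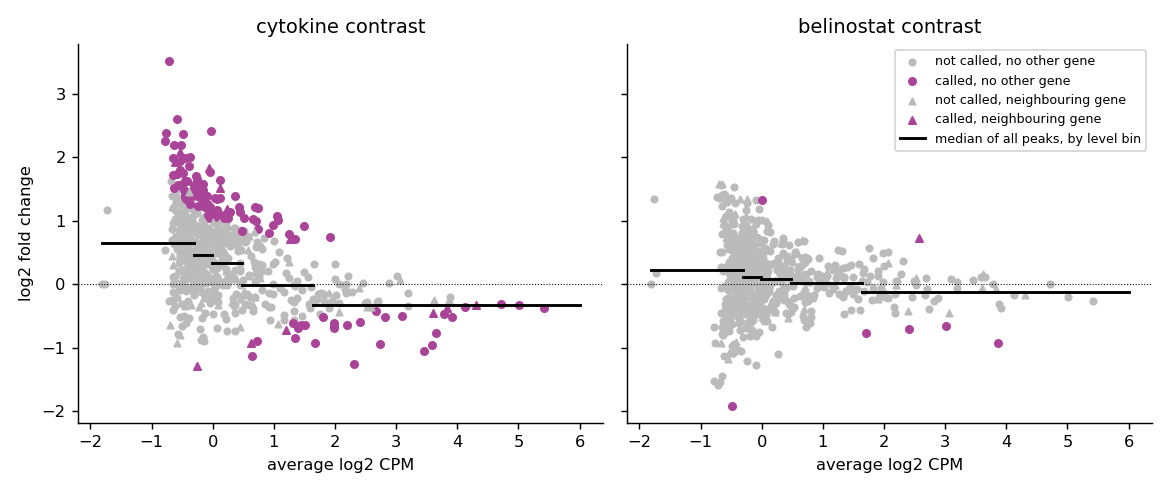
Log2 fold change against average log2 CPM for the 641 OR peaks in the cytokine contrast (left) and the belinostat contrast (right). Purple marks peaks called at an adjusted p under 0.05, triangles mark peaks at a neighbouring gene, and black lines give the median of all peaks in each level bin, which falls from 0.65 in bin 1 to −0.32 in bin 5 in the cytokine contrast.

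Peaks in OR coding exons mostly had values above 0. Of 126, 31 (24.6%) opened and 2 closed in the cytokine contrast, and 112 (88.9%) had a log2 fold change above 0, with a median of 0.75. Over all peaks 9.51% opened and 57.7% had a value above 0. Level differed, as 54 of the 126 were in bin 1, where the median of all peaks was 0.65. The difference of coding exon peaks from other OR peaks or from all peaks was not tested. By level, 11 of 54 coding exon peaks opened in bin 1, against 24 of 155 others, and 9 of 32 in bin 2, against 19 of 110. In bin 3 it was 7 of 25 against 9 of 100, and in bin 4, 4 of 12 against 11 of 87. In bin 5 none of 3 opened and 2 closed, against 1 opened and 22 closed of 63. With loess offsets the coding exon median was 0.41, but only 1 of the 126 was called as opened. OR coding exons resemble each other, and reads from near-identical copies can be misplaced. In 22 of the 126 coding exon peaks (17.5%), over 50% of the 31-base words of the central bases occurred more than once in hg38, against 10.5% of the other OR peaks and 3.10% of the zinc finger peaks of chromosome 19. Leaving out all 76 such OR peaks left 85 opened (15.0%) and 34 closed (6.02%).

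In the classes, 15 of 112 class I peaks opened (13.4%) and 4 closed, and 80 of 529 class II peaks opened (15.1%) and 30 closed. Peaks with no other gene nearby opened in 15.9% of cases, and those within 3 kb of a neighbour's start in 2 of 22. Zinc finger windows of chromosome 19 went the other way, with 7.84% opened and 20.8% closed, and 34.5% of their peaks were in level bin 5. Peaks over 100 kb from any protein-coding start opened in 10.7% and closed in 7.29% of cases.

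Peaks that opened in the main fit lay in many clusters. Of the 40 clusters with a peak, 35 had a median log2 fold change above 0, 27 held at least 1 opened peak and 12 at least 1 closed peak. Values above 0 were common over all peaks too (57.7%), with medians of 0.65, 0.46 and 0.33 in bins 1 to 3. With loess offsets 16 OR peaks opened and 14 closed, and a share of clusters beyond the general trend with level was not tested. In OR1D5 to OR1E2 on chromosome 17, 7 of 22 peaks opened and none closed. Its share of the counts was 0.000386% to 0.00111% in unstimulated libraries and 0.00149% to 0.00230% in DMSO libraries, with no overlap. Its peaks were weak, with a median average log2 CPM of −0.39. The share of all weak peaks of the genome did not overlap between these groups either (3.11% to 5.55% and 6.05% to 8.89%). OR10H2 to OR10H4 on chromosome 19 had 8 opened and 1 closed among 26 peaks. In OR2B11 to OR14I1 on chromosome 1, 8 of 43 peaks opened and none closed. OR9A2 to OR2A1 on chromosome 7, which includes OR6V1, had 4 opened and 8 closed among 55.

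The belinostat contrast asked what the inhibitor changed after the cytokine pulses. OR peaks differed little here: 2 of 641 opened (0.312%) and 5 closed (0.780%), against 0.607% and 1.75% of all peaks. Medians of the log2 fold change were 0.08 over OR peaks and 0.01 over all peaks. Without belinostat replicate 1, the library with few counts in weak peaks, 5 opened (0.780%) and 8 closed (1.25%). Over all peaks these shares were 0.855% and 2.60%. By DESeq2, none opened and 3 closed (0.468%), against 0.182% and 1.18% of all peaks. At an unadjusted p under 0.05 the edgeR counts were 56 and 29, which were not counted over all peaks.

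The difference with the smallest adjusted p was a fall next to OR1J1 on chromosome 9 (chr9:122468589-122469208), 9028 bases from its start and 2460 bases from the start of a long non-coding RNA. It had 16.2, 18.9 and 22.5 CPM in unstimulated libraries, 11.4, 16.0 and 18.8 CPM in DMSO libraries and 7.03, 8.14 and 9.23 CPM in belinostat libraries. The unstimulated and DMSO ranges overlapped, and all belinostat libraries lay below both. The log2 fold change was −0.93 (SE 0.13, edgeR adjusted p = 1.11e-07) against DMSO and −0.78 (adjusted p = 9.20e-09) with loess offsets. In the flank of OR4F6 (chr15:101807369-101807943) the fall came in steps, from 6.24, 7.21 and 8.01 CPM to 3.61, 4.79 and 6.18 CPM with DMSO and 2.50, 2.94 and 3.41 CPM with belinostat. None of the 3 ranges overlapped. The log2 fold change in the belinostat contrast was −0.71 (SE 0.19, edgeR adjusted p = 0.014), and the call was lost under 1 of 7 other settings. With loess offsets this change was −0.62 (edgeR adjusted p = 0.031). The step from unstimulated to DMSO was then −0.34 and not called (edgeR adjusted p = 0.15), so it rested on the scaling.

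A flank peak of OR8G5 on chromosome 11 (chr11:124276112-124276691) fell by 0.66 on the log2 scale (SE 0.15, edgeR adjusted p = 0.0027), with belinostat replicate 1 inside the DMSO range. The OR10AC1 peak on chromosome 7 (chr7:143519545-143520108), 357 bases from its start, fell by 0.77 on the log2 scale (SE 0.23, edgeR adjusted p = 0.045) and was not called under 6 of 7 other settings. The last of the 5 that closed, named after its values were seen, is a faint intron peak of OR3A2 on chromosome 17 (chr17:3382874-3383075) with 54 counts in all libraries together. It opened in the cytokine contrast, with 0 to 0.519 CPM in unstimulated and 0.677 to 1.34 CPM in DMSO libraries, and was back at 0 to 0.572 CPM in belinostat libraries. Its log2 fold changes were 2.36 (edgeR adjusted p = 0.00080) and −1.91 (edgeR adjusted p = 0.020), and it was the single OR peak that opened in the first contrast and closed in the second.

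Of the 2 peaks that opened with belinostat, 1 lies in an intron of OR51B5 (chr11:5364208-5364789), in a stretch that the annotation also gives to the bodies of the globin genes HBE1 and HBG2. It had 2.29, 4.26 and 6.70 CPM in DMSO libraries and 4.00, 8.44 and 9.63 CPM in belinostat libraries, which overlap, with a log2 fold change of 0.73 (SE 0.17, edgeR adjusted p = 0.0052). The second, in the flank of OR2A1 (chr7:144331818-144332192), had 90 counts in all and a log2 fold change of 1.32 (SE 0.39, edgeR adjusted p = 0.038). Most words of its central bases (89.5%) occur more than once in the genome. Whether the reads counted at this peak could be placed with certainty was not tested. Belinostat replicate 1, at 0.401 CPM, was inside the DMSO range of 0.295 to 0.583 CPM.

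**Figure D5:**
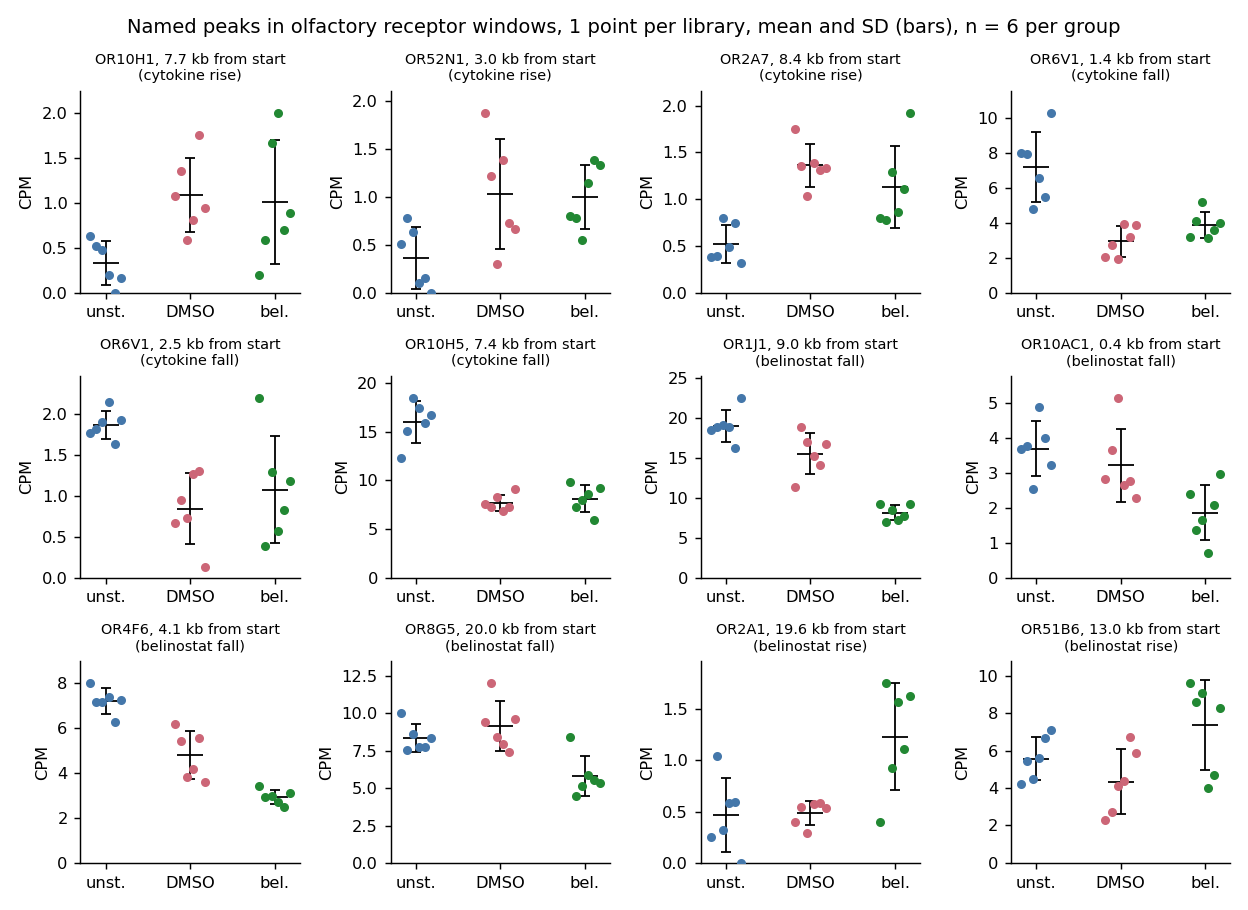
CPM in every library for 12 OR peaks, titled by the nearest OR start, the distance to it and why the peak is named, with the mean and SD of 6 libraries per group. The groups are unstimulated (unst.), DMSO and belinostat (bel.). For the OR1J1 peak the belinostat libraries, at 7.03 to 9.23 CPM, lie below all others, and for the OR6V1 and OR10H5 peaks both treated groups lie mostly below the unstimulated one.

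The residual contrast asked what still set cells apart from unstimulated ones after both treatments. Here 147 OR peaks opened (22.9%) and 42 closed (6.55%), against 16.8% and 13.7% of all peaks, with medians of 0.62 and 0.20. With loess offsets 25 opened and 21 closed (3.90% and 3.28%), against 3.82% and 4.92% of all peaks, so the higher share of opened OR peaks was not seen there. Of the 95 OR peaks that opened in the cytokine contrast, 43 were also called as opened here, and of the 34 that closed, 30 were called as closed. The contrasts share the unstimulated libraries, so some of this overlap is built in, and it was not counted over all peaks. The opened set was also much weaker than the closed set, with median average log2 CPM of −0.15 and 2.36. Whether opening or closing lasted more was therefore not tested. The OR1J1 peak had a log2 fold change of −1.22 (SE 0.13, edgeR adjusted p = 2.82e-14) and the OR4F6 flank peak one of −1.30 (SE 0.17, edgeR adjusted p = 5.37e-10). The largest fall was at a peak 10895 bases from the start of OR9A2 (chr7:143015931-143016544), from 7.88, 8.75 and 13.2 CPM to 2.00, 3.86 and 6.42 CPM, a log2 fold change of −1.33 (SE 0.18, edgeR adjusted p = 7.97e-10). Among the rises, a flank peak of OR5AN1 (chr11:59355318-59355752) went from 0, 0.419 and 0.649 CPM to 1.00, 1.31 and 1.85 CPM, with no overlap and a log2 fold change of 1.71 (SE 0.39, edgeR adjusted p = 0.00031). A peak 82 bases from the start of OR10H5 (chr19:15787396-15787762) rose by 1.52 on the log2 scale (SE 0.41, edgeR adjusted p = 0.0028) and lost its call with loess offsets.

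Counts were next summed per gene window, for 246 OR genes and 18620 protein-coding genes with at least 1 peak. Neighbouring OR genes share peaks, and 127 OR peaks lay in more than 1 OR window, so these windows are not independent. In the cytokine contrast 95 OR windows were higher (38.6%) and 24 lower (9.76%), where over all genes 10.2% were higher and 66.3% lower. Their median log2 fold change was 0.51, against −0.26 over all genes. Level differed as much: 233 of the 246 OR windows were in the lowest of 5 equal level bins of gene windows. Within that bin 40.8% of OR windows and 35.7% of all windows were higher, and 6.01% and 13.3% were lower. With loess offsets the balance turned: 13 OR windows were higher (5.29%) and 28 lower (11.4%), where 14.9% of all windows were higher and 9.58% lower. The OR median then stood 0.06 above that of all genes instead of 0.76.

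The OR6V1 window had the largest fall, from 4.85, 5.07 and 5.25 log2 CPM in unstimulated libraries to 3.71, 4.19 and 4.42 in DMSO libraries, without overlap. The log2 fold change was −0.87 (SE 0.10, edgeR adjusted p = 9.10e-07). Those of OR6M1 on chromosome 11 and OR9A2 fell by 0.85 (edgeR adjusted p = 0.00073) and 0.73 (edgeR adjusted p = 0.00084) on the log2 scale. The largest rises were in windows with 1 or 2 faint peaks. OR1G1 on chromosome 17 had a log2 fold change of 2.19 (SE 0.67), OR4C3 on chromosome 11 one of 1.97 (SE 0.44) and OR5B12 on chromosome 11 one of 1.95 (SE 0.60), with edgeR adjusted p of 0.0052, 0.00065 and 0.0052.

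In the belinostat contrast 1 OR window was higher and 2 were lower (0.407% and 0.813%), against 0.145% and 2.22% of all windows. The one that was higher was OR5AN1, which went from 1.54, 1.67 and 1.99 log2 CPM in DMSO libraries to 2.23, 2.51 and 2.73 in belinostat libraries, without overlap, with a log2 fold change of 0.83 (SE 0.18, edgeR adjusted p = 0.010). The OR1J1 window had −0.62 (SE 0.10, edgeR adjusted p = 0.0014) and that of OR8G5 −0.66 (SE 0.14, edgeR adjusted p = 0.010). The OR8G5 window holds 1 peak, the flank peak given above, so its value repeats the same counts. Without belinostat replicate 1, 15 OR windows were higher (6.10%) and 8 lower (3.25%), and the shares over all windows changed too, to 1.46% higher and 25.7% lower. In the residual contrast 107 OR windows were higher (43.5%) and 25 lower (10.2%), against 11.8% and 70.0% of all windows. In the lowest level bin 45.5% of OR windows and 42.1% of all windows were higher. With loess offsets 25 OR windows were higher (10.2%) and 37 lower (15.0%), against 21.4% and 19.5% of all windows, and the OR median stood 0.02 above that of all genes instead of 0.93. The largest rises were in the windows of OR1G1 (2.41 on the log2 scale), OR52B6 (2.05) and OR4X1 (1.79), and the largest falls in those of OR1J1 (−0.91), OR6M1 (−0.76) and OR9A2 (−0.74).

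Genes that act with ORs in the nose were measured from the same windows. Of 13 genes of olfactory signalling, 2 were higher (15.4%) and 4 lower (30.8%) in the cytokine contrast, against 10.2% and 66.3% of all windows. REEP1, a membrane protein that helps receptors to the cell surface, had a log2 fold change of 0.27 (edgeR adjusted p = 0.0019) and ANO2, a calcium-gated chloride channel, one of 0.16 (edgeR adjusted p = 0.026). RTP1, a receptor chaperone, had −0.44 (edgeR adjusted p = 0.00045), where the median of all windows was −0.26. The window of GNAL, the G protein alpha subunit that ORs activate, had −0.04 there and −0.26 (edgeR adjusted p = 0.031) in the belinostat contrast. Of 8 factors tied to OR choice, LDB1, EBF4 and ATF5 were lower, at −0.38, −0.20 and −0.22, and EMX2, a homeodomain factor, was higher at 0.34 (edgeR adjusted p = 0.030). These 3 are 37.5% of the list, below the 66.3% of all windows that were lower, and the values of EBF4 and ATF5 lie above the median of all windows. For LHX2, which binds OR enhancers in the nose, the value was −0.02 (edgeR adjusted p = 0.84).

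Of 22 genes of the heterochromatin machinery, 19 were lower (86.4%) in the cytokine contrast and 1 was higher, with a median of −0.30. Over all windows 66.3% were lower, with a median of −0.26, and in level bins 3 to 5 of gene windows 79.3% to 92.4% were, so this count is near the background. The lowest value was that of CBX3, a protein that binds methylated histone H3, at −0.46 (SE 0.09, edgeR adjusted p = 0.00033). The exception was EHMT1, a histone H3 lysine methyltransferase, at 0.19 (SE 0.08, edgeR adjusted p = 0.021). SETDB1, which deposits the silencing H3 mark at many repeated gene families, had −0.34, and LBR, the lamin B receptor that tethers heterochromatin to the nuclear rim, −0.38. With belinostat DNMT1, the maintenance DNA methyltransferase, was the single member called, at −0.30 (SE 0.06, edgeR adjusted p = 0.0072). Of the related chemosensory receptors, 1 of 10 bitter taste windows was higher and 4 lower in the cytokine contrast, 1 of 6 trace amine receptor windows was higher (TAAR8, at 1.75) and 1 lower (TAAR5, at −0.62), and 3 of 4 vomeronasal windows were higher and 1 lower.

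The words searched in the central bases were counted in OR peaks and in all peaks. The AP-1 word occurred in 73 OR peaks (11.4%) and in 14.2% of all peaks, the TEAD word in 80 (12.5%) and 15.6%, and the EBF word in 31 (4.84%) and 9.09%. The RUNX word occurred in 120 (18.7%) and 16.5%, and TAATTA in 21 (3.28%) and 2.76%. A longer core word of CTCF, the insulator protein, was in 5 OR peaks (0.780%) and in 1.13% of all peaks. The share also varied with level: in bin 5 the AP-1 word was in 19.7% of OR peaks and 17.8% of all peaks, and in bin 1 in 6.70% and 9.13%. The TEAD word was in 21.2% and 16.1% in bin 5, in 20.2% and 17.4% in bin 4 and in 6.70% and 14.4% in bin 1, so its lower share over all OR peaks was not seen in the stronger bins. A match is a run of letters and not a bound site, and the AP-1 word is a loose form with any base at its centre.

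Almost no counts fell in 3 OR peaks. A peak in an OR9Q1 intron (chr11:58051933-58052113) had 0 counts in all 18 libraries, and a pair in OR6J1 introns on chromosome 14 had 1 and 2. All 31-base words of these 3 peaks occur more than once in hg38. How many of the 153 OR genes without a peak lie in sequence where reads cannot be placed was not tested.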

How the data were processed

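Omni-ATAC libraries of Ccd18-Co cells were sequenced by the authors, who ran the ENCODE ATAC-seq pipeline on hg38, dropped duplicate and mitochondrial reads, used MACS2 for peaks and csaw to count fragments per consensus peak. Raw counts per peak and library were deposited. Table columns were tied to samples by the sample number in the labels. No column was left unused.

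Here, OR peaks were found by overlap with GENCODE 44 genes. All 334857 peaks were fitted with edgeR 4.0.16 (quasi-likelihood, TMM factors from the peaks because reads outside peaks were not used here, 1 mean per group over 18 libraries, Benjamini-Hochberg over all peaks, calls at adjusted p under 0.05). CPM values use TMM-scaled library sizes. Named peaks are, per contrast, the 4 largest rises and 4 largest falls among called OR peaks whose average log2 CPM was not below 0, the 4 strongest OR peaks, and the 4 strongest away from other genes, and, for gene windows, the 3 largest rises and falls. The members and gene lists were chosen with earlier results of these data known. Alternatives included other scalings, loess offsets, DESeq2 1.42.0, a filter on low counts, a replicate block and leaving out each library. Scripts were tested on simulated data. Doses follow the labels. The study's text gives another belinostat dose, and for IL-1β both the labelled value and another.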

Additional observations from a re-analysis of the deposited data

Results flagged for a closer look

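Within groups of 6, Dixon's test at its 95% value marked 5 of the 78 sets of values tested, where chance gives about 1 in 20. The share of OR peaks without a count was far above the rest in unstimulated replicate 6 (17.2%, next 7.02%), in DMSO replicate 3 (4.06%, next 2.03%) and in belinostat replicate 1 (8.58%, next 3.28%). The strongest OR peak, in the OR9Q1 intron, had 61.5 CPM in unstimulated replicate 6, and the next library had 53.8 CPM. The OR8G5 flank peak had 8.42 CPM in belinostat replicate 1, against 4.49 to 5.86 CPM in the other 5. These 3 libraries also had the fewest counts in weak peaks of their groups.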

How the results depend on the processing

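For OR peaks opened and closed in the cytokine contrast (95 and 34), library totals gave 150 and 11 (16.2% and 3.25% of all peaks). TMM over the weaker 50% of peaks gave 25 and 88 (2.24% and 25.2% of all peaks). Loess offsets gave 16 and 14 (2.00% and 1.91% of all peaks), and DESeq2 45 and 17 (4.54% and 5.55% of all peaks). The filter to an average log2 CPM over 0 left 288 OR peaks. Of these, 40 opened (13.9%) and 35 closed (12.2%), against 8.70% and 17.2% of all peaks left. In the belinostat contrast (2 and 5), library totals gave 5 opened, TMM over the weaker peaks 0 by edgeR (31 at an unadjusted p under 0.05), and DESeq2 0 opened (37 at an unadjusted p under 0.05) and 3 closed. Without peaks whose words recur, an alternative chosen after seeing the data, 1 opened. In the residual contrast (147 and 42), library totals gave 259 and 16 (40.4% and 2.50%, against 30.4% and 6.31% of all peaks). The weaker peaks gave 22 and 107 (3.43% and 16.7%, against 2.64% and 30.9% of all peaks), and loess offsets 25 and 21. DESeq2 gave 25 closed (3.90%, against 10.1% of all peaks). With the level filter 59 of 288 opened (20.5%, against 12.6% of all peaks left).

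For OR gene windows higher and lower, loess offsets gave 13 higher in the cytokine contrast, 2 and 4 in the belinostat contrast and 25 higher and 37 lower in the residual contrast. Library totals gave 6 lower (2.44%, against 20.8% of all windows), 3 higher (1.22%, against 2.03%) and 7 lower (2.85%, against 31.3%) in these contrasts. With windows of the body and 3 kb upstream, 167 OR windows were tested instead of 246. In the cytokine contrast 58 were higher (34.7%) and 10 lower (5.99%), where the main fit had 38.6% and 9.76%. The belinostat contrast had 0 and 0 (edgeR, 17 and 4 at an unadjusted p under 0.05). In the residual contrast 70 were higher (41.9%) and 11 lower (6.59%), where the main fit had 43.5% and 10.2%. Over all windows of this kind 10.3% and 62.6% were called in the cytokine contrast, 0.138% and 1.75% in the belinostat contrast and 12.4% and 66.7% in the residual contrast. The cause of the differences in share between settings was not tested.

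Leaving out each library gave 58 to 109 opened and 24 to 39 closed OR peaks in the cytokine contrast, 1 to 5 and 3 to 8 in the belinostat contrast, and 109 to 179 and 29 to 46 in the residual contrast. Windows ranged from 70 to 97 higher and 17 to 26 lower, 1 to 15 and 2 to 8, and 86 to 118 and 20 to 26. The lowest count of opened peaks in the cytokine contrast came without unstimulated replicate 6, that in the residual contrast without belinostat replicate 4, and the highest belinostat counts without belinostat replicate 1. Without unstimulated replicate 6, 5.52% of all peaks opened in the cytokine contrast, where the main fit had 9.51%.

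Replicate numbers did not pair the libraries: same-numbered libraries correlated at −0.13 to 0.11, and 4 of 18 correlated best with their own number. With a replicate block, 97 OR peaks opened and 35 closed in the cytokine contrast, 2 and 4 in the belinostat contrast and 143 and 41 in the residual contrast, and 3 windows were higher with belinostat. Of 154 values for 22 named peak results under 7 settings, 132 kept their call, 22 lost it and 0 reversed. Under all 7 settings 12 of the 22 results kept their call. The peaks were named for large called changes in the main fit of these same libraries, so some of this is built in. Over all called OR peaks of the cytokine contrast, loess offsets kept 14 of 95 opened and 11 of 34 closed. Weak peaks, with few counts per library, limit these calls.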
